A study of Mus musculus with 12 samples.

Results

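Transcript levels were compared between RTF2-deficient and wild-type (WT) mouse embryonic fibroblasts (MEFs) of line 2, 1 of the 2 MEF lines in the study. All genes outside chromosomes X and Y with enough counts to test were described, which were 13773 of the 24100 genes in the deposited table. The RTF2-deficient MEFs carried the genotype Rtf2-/lox, with 1 allele already deleted and the other flanked by lox sites, and the WT MEFs carried Rtf2+/+. Both came from littermate embryos, both were immortalized with the SV40 large T antigen, and both had received a Cre retrovirus (Hit & Run pMMP) 72 hrs before RNA was collected, so the controls share the immortalization and the exposure to Cre. Each group had 3 libraries. Line 1, the other MEF line, held the same genotypes and treatment with 3 libraries each, and it is used here to show where line 2 differed. The study says in general that its MEF lines came from individual mothers, without naming these lines. The study calls the libraries of each set of MEFs technical replicates, so p-values measure the spread between libraries and not that between embryos. Libraries of 1 group nevertheless differed by more than counting error, with a chi-square per degree of freedom of 20.5 to 179.5 over the pairs within the groups of line 2, and the step at which they were separated is not stated in the sources read.

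RTF2 is a protein of the replisome, the machine that copies DNA at the replication fork. The study examined it together with RNase H2, the enzyme that removes ribonucleotides and RNA from DNA, and with PRIM1, the primase that lays down the RNA primers of DNA synthesis. MEFs are mixed cultures of mesenchymal cells that keep part of the positional identity of the tissue they came from, and the large T antigen holds p53 and the retinoblastoma proteins inactive in them. Cre excises exon 3 of Rtf2. By GENCODE M21 on GRCm38, the mm10 build, this exon lies at chr2:172445327-172445420 on the + strand, and it is shown because it is the part of the gene that the RTF2-deficient cells lose.
Rtf2 exon 3: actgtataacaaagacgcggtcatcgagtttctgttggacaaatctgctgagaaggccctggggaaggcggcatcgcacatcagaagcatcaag

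Library totals in line 2 lay between 39360167 and 44695002 counts. Absence of counts in the library of lowest total still allows a level of up to 0.0762 CPM (counts per 1000000 counts, TMM-normalized), the level of 3 counts, and this limit covers counting error only. The 12 fibroblast markers all passed the filter on low counts, and their summed level was 19730 to 21798 CPM in WT and 21884 to 24826 CPM in RTF2-deficient libraries. Col1a1, Col1a2, Fn1 and Vim made up most of that sum, whereas Dcn reached at most 2.102 CPM and Lum at most 1.65 CPM in line 2. Summed endothelial markers reached at most 18.1 CPM, blood markers 9.55 CPM and muscle markers 0.0452 CPM, with Pecam1, Cdh5, Ptprc, Hbb-bs, Pax7 and Sox10 below the filter. Epithelial markers summed to 48.2 to 91.2 CPM in WT and 35.1 to 82.6 CPM in RTF2-deficient libraries, neural markers to 267 to 406 CPM and 327 to 575 CPM, and cartilage markers to 771 to 909 CPM and 936 to 1111 CPM. Of these markers the macrophage gene Cd68 (log2 fold change -1.07) and the stem cell factor Sox2 (-1.51) were called lower and none higher, and their part in other results was not tested.

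A pair of features bears on every comparison in line 2. The Y-linked gene Ddx3y lay between 91.8 and 107 CPM in WT and at or under 0.0678 CPM in RTF2-deficient libraries, while Xist lay at or under 0.132 CPM in WT and between 114 and 173 CPM in RTF2-deficient libraries. WT line 2 thus had the sex-linked pattern of a male embryo and RTF2-deficient line 2, like both groups of line 1, that of a female one, so genotype, sex and embryo cannot be told apart within line 2. The other feature is the interferon response, measured as the median log2(CPM + 1) of 56 antiviral genes that interferon induces. It was 7.38, 3.93 and 5.48 in WT replicates 1 to 3 and 1.74, 2.65 and 5.99 in RTF2-deficient replicates 1 to 3. WT replicate 1 and RTF2-deficient replicate 3 were the high libraries of their groups, and the groups overlapped. Over the genes past the filter, RTF2-deficient replicate 3 was closer to WT replicate 3 (root mean square difference of 0.524 in log2 CPM) than to RTF2-deficient replicates 1 (0.643) and 2 (0.567).

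Rtf2 itself (chromosome 2) had 57.8, 52.9 and 50.9 CPM in WT and 6.66, 6.49 and 6.33 CPM in RTF2-deficient libraries, with no overlap between groups. Means were 53.9 ± 3.52 CPM and 6.49 ± 0.168 CPM (SD, n = 3), and the RTF2-deficient level was 12.1% of the WT level. The log2 fold change of Rtf2, RTF2-deficient over WT, was -3.05 (SE 0.08, Benjamini-Hochberg adjusted p = 1.0e-08 in edgeR's quasi-likelihood test). An exact two-sided permutation test of the 6 values gave p = 0.1, the smallest that 3 against 3 libraries allow. In line 1 the log2 fold change was -2.98, and the difference between the lines was -0.07 (adjusted p = 0.98).

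All genes were then compared by the same test, and called when the adjusted p was under 0.05 and the log2 fold change passed 1 in size. In RTF2-deficient MEFs 275 genes were lower (2.0% of those tested) and 234 were higher (1.70%), together 509 genes (3.70%). Over all genes the median log2 fold change was 0.20 in size, and 92.1% of genes changed by less than 1. The threshold on the adjusted p alone was passed by 1703 genes (12.4%), 965 of them lower and 738 higher, and 3808 genes (27.6%) had an unadjusted p under 0.05. Called genes were mostly of low abundance, with a median of 4.22 CPM for lower and 2.51 CPM for higher genes against 22.8 CPM over all genes tested. The groups did not overlap in 272 of the lower and 231 of the higher genes, beside 29.3% of all genes, and the test itself chose these genes. Leaving out RTF2-deficient replicate 3 raised the lower calls to 577, and leaving out RTF2-deficient replicate 1 or 2 cut them to 160 or 141. Of the calls, 122 lower and 120 higher genes were kept whichever of the 6 line 2 libraries was left out.

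**Figure D1:**
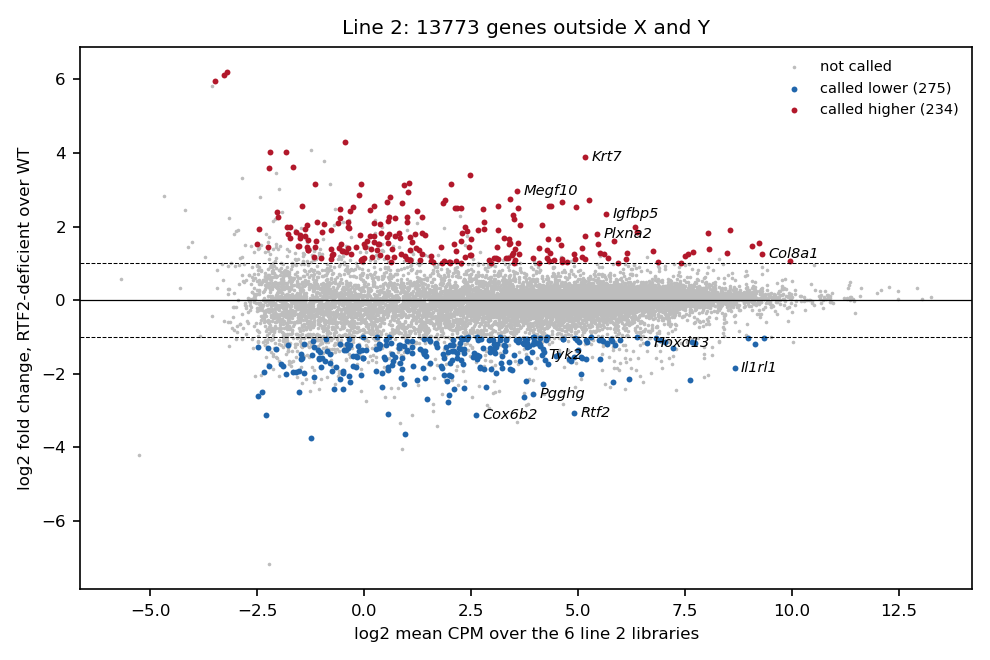
Log2 fold change (RTF2-deficient over WT, y axis) against log2 mean CPM over the 6 libraries of line 2 (x axis), with 1 point per gene outside X and Y, dashed lines at 1 and -1, and colours for the 275 genes called lower and the 234 called higher. Most genes lie between the dashed lines, and Rtf2 lies at -3.05.

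The genes described next are among the 12 most negative called genes with at least 1 CPM in WT. Lrrtm3, a synaptic adhesion protein, had 1.28, 5.29 and 4.204 CPM in WT and 0.313, 0.231 and 0.316 CPM in RTF2-deficient libraries (log2 fold change -3.63, SE 0.54, adjusted p = 0.0017). Cacna1h, a T-type calcium channel subunit, had 4.52, 5.53 and 4.32 CPM in WT and 0.890, 0.539 and 0.791 CPM in RTF2-deficient libraries (-2.69, SE 0.33, adjusted p = 0.00067). In both genes the lowest WT library lay above the highest RTF2-deficient one. Msln, a surface protein of mesothelium, fell by 2.63 on the log2 scale from 28.9, 24.3 and 15.5 CPM to 2.598, 1.69 and 6.76 CPM. The calcium channel subunit gene Cacna2d3 fell by 2.402, from 3.800, 10.5 and 7.56 CPM to 1.49, 1.44 and 1.198 CPM. Reln, the secreted guidance protein reelin, fell by 2.41, and Ednrb, the endothelin B receptor, fell by 3.097. All of these calls were kept in each fit that left out 1 line 2 library. Osr2, a mesenchyme transcription factor, fell by 2.41 from 0.955, 1.26 and 0.874 CPM to 0.0962, 0.205 and 0.271 CPM, and its call was lost in 5 of the 6 such fits, with an adjusted p of 0.14 without RTF2-deficient replicate 1.

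Of the 12 most positive called genes with at least 1 CPM in RTF2-deficient libraries, Krt7, a keratin of simple epithelium, had 2.89, 6.92 and 3.802 CPM in WT and 92.00, 75.5 and 33.5 CPM in RTF2-deficient libraries (log2 fold change 3.88, SE 0.64, adjusted p = 0.0033). Megf10, an engulfment receptor that muscle satellite cells also use, had 2.45, 2.65 and 3.02 CPM in WT and 19.2, 18.5 and 26.3 CPM in RTF2-deficient libraries (2.98, SE 0.24, adjusted p = 7.5e-05). Pou3f3, a neural and kidney transcription factor, had 1.19, 3.68 and 3.45 CPM against 18.9, 19.96 and 16.6 CPM (2.74, SE 0.33, adjusted p = 0.00059). The RTF2-deficient libraries were high in all of these genes, and no library of one group reached the other. Sprr2g, of the small proline-rich family and listed as a transcribed pseudogene in the annotation, had 2 to 4 counts per WT library and 1.18, 1.92 and 1.06 CPM in RTF2-deficient libraries. The carbonic anhydrase Car3, the atypical cadherin Fat3, the Notch target Heyl, the connexin Gja5 and Crmp1, a mediator of semaphorin signalling, rose by 2.81, 2.86, 3.15, 3.18 and 3.15, and 3110039M20Rik rose by 3.13. WT libraries held as few as 3 counts of Heyl and 6 of Fat3, and the Heyl call was lost with both libraries of high interferon level left out. Chodl, a membrane lectin, had 0.955, 1.04 and 0.897 CPM in WT and 8.37, 3.62 and 18.3 CPM in RTF2-deficient libraries. Its rise of 3.39 was not called without WT replicate 1, 2 or 3, with an adjusted p of 0.061 without WT replicate 3.

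**Figure D2:**
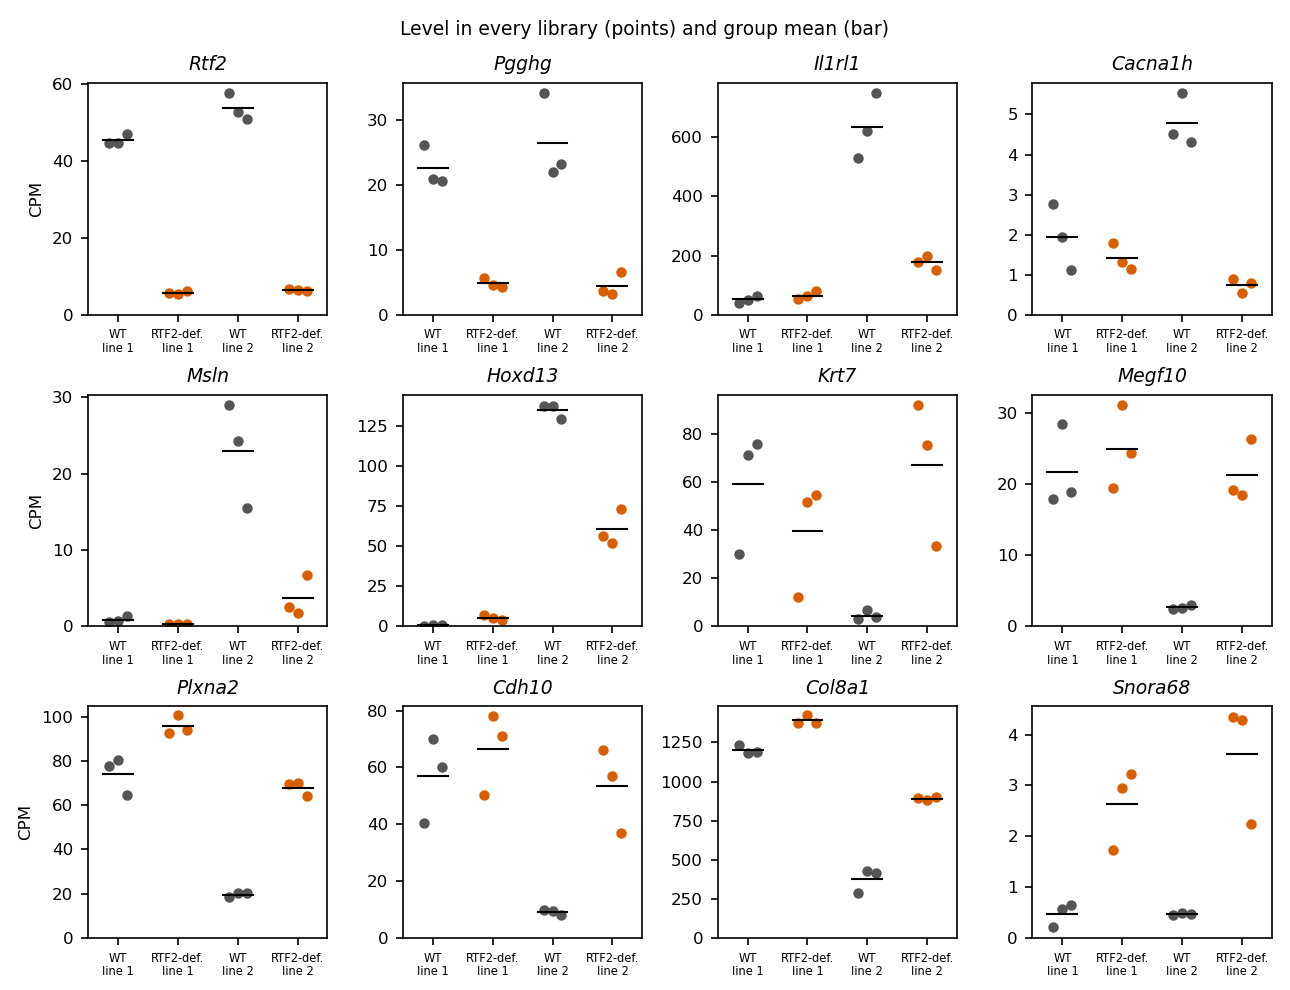
Level in CPM (y axis) of 12 genes in each of the 12 libraries by genotype and line (x axis), with 1 point per library and a bar at each group mean. Rtf2, Pgghg and Snora68 differ between genotypes in both lines, whereas Krt7, Megf10, Plxna2, Cdh10 and Col8a1 are low in WT line 2 beside the other groups.

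To see which group of line 2 stood apart at the called genes, both were set against the other 9 libraries of the series. All 3 WT line 2 libraries lay above all 9 others in 159 of the 275 lower genes (57.8%), and all 3 RTF2-deficient line 2 libraries lay below all 9 others in 17 (6.18%). Among the 234 higher genes, WT line 2 lay below all 9 others in 199 (85.0%), and RTF2-deficient line 2 lay above all 9 others in 9 (3.85%). Over all genes tested WT line 2 lay above the 9 others in 5.68% and below them in 7.07%, and RTF2-deficient line 2 lay below them in 1.23% and above them in 1.10%. The same libraries chose the called genes, so these shares are a description and were not tested. The RTF2-deficient line 2 mean lay within the range of the 6 line 1 libraries in 163 of the lower and 125 of the higher genes, and the WT line 2 mean did so in 71 and 21. Over all genes tested the shares within that range were 66.8% for the RTF2-deficient and 55.3% for the WT mean.

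Plxna2 and Cdh10 show this at single genes. Plxna2, a plexin receptor for semaphorins, had 18.3, 20.1 and 20.4 CPM in WT and 69.4, 70.03 and 64.2 CPM in RTF2-deficient line 2 (log2 fold change 1.79, SE 0.09, adjusted p = 1.4e-06), beside means of 74.1 CPM in WT and 95.7 CPM in RTF2-deficient line 1. Cdh10, a classical cadherin, had 9.75, 9.59 and 8.12 CPM in WT and 66.1, 57.02 and 36.9 CPM in RTF2-deficient line 2 (2.54, SE 0.26, adjusted p = 0.00027), beside line 1 means of 56.8 and 66.5 CPM. In both genes WT line 2 was the low group of the 4.

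**Figure D3:**
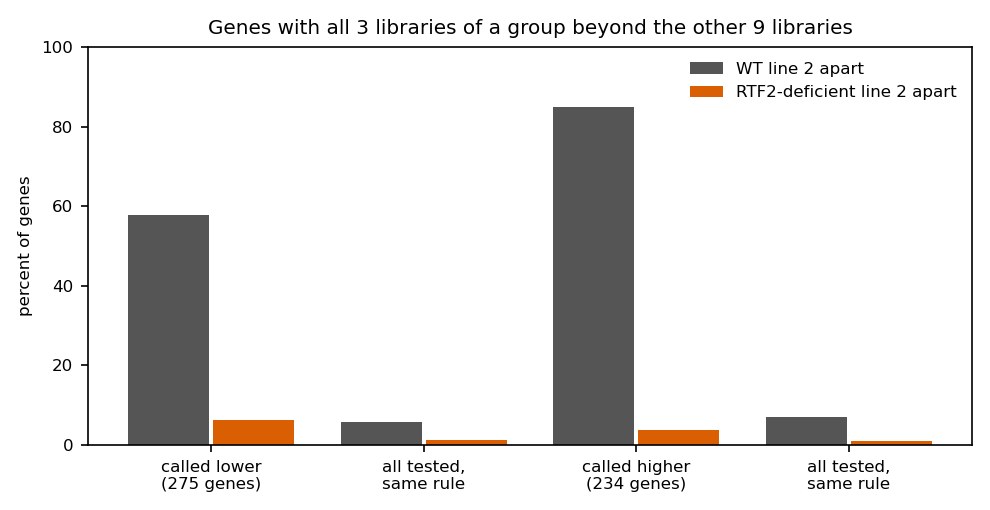
Percent of genes (y axis) with all 3 libraries of WT line 2 or of RTF2-deficient line 2 beyond the other 9 libraries, for the genes called lower, the genes called higher and all genes tested. At the called genes WT line 2 stands apart in 57.8% and 85.0% and RTF2-deficient line 2 in 6.18% and 3.85%.

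The lines were compared to ask which effects in line 2 were also present in line 1. The 2 comparisons shared no libraries. In line 1 92 genes were called lower (0.668% of those tested) and 35 higher (0.254%). Of the genes lower in line 2, 59 were lower in line 1 too, and 50 of these were kept whichever line 2 library was left out. The genes higher in both lines were 5 in number, namely Snora68, Lad1, Snora41 and, named after their values were seen, Tbrg4 and the non-coding Gm16596. In line 1 the median log2 fold change was -0.72 over the genes called lower in line 2 and 0.19 over those called higher, beside 0.01 over all genes tested. In line 1 206 of the 275 lower genes were also below 0, and 162 of the 234 higher genes were above 0, beside 48.5% of all genes below 0. The line 2 effect differed from the line 1 effect in 142 genes (1.03%), of which 59 had the more negative and 83 the more positive effect in line 2. That count was 253 by DESeq2 on 12 libraries and 55 to 131 with 1 library left out. It fell to 81 or 55 without RTF2-deficient replicate 1 or 2 of line 2, to 64 without WT replicate 3 of line 2, to 86 or 66 without RTF2-deficient replicate 1 or 2 of line 1 and to 66 without WT replicate 2 of line 1. Those 142 included 38 of the lower and 65 of the higher genes.

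**Figure D4:**
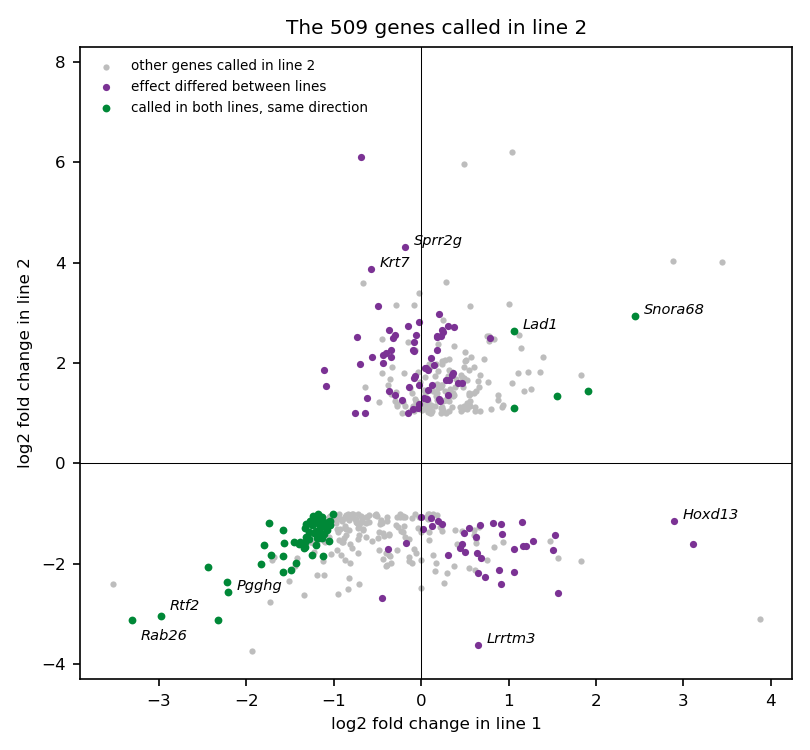
Log2 fold change in line 2 (y axis) against that in line 1 (x axis) for the genes called in line 2, with colours for genes called in both lines in the same direction and for genes whose effect differed between the lines. Rtf2 lies at -3.05 and -2.98, whereas Krt7 lies at 3.88 in line 2 and -0.58 in line 1.

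Genes called in both lines in the same direction were ordered by the smaller of their effects in the 2 lines, and the first 5 were Rab26, Rtf2, Snora68, Cox6b2 and Serhl, followed by Pgghg. Rab26, a small GTPase of secretory vesicles, had 0.369, 0.485 and 0.260 CPM in WT and at most 3 counts in any RTF2-deficient library of line 2, and its line 2 call was lost by DESeq2 on 12 libraries. Pgghg, an enzyme that removes glucose from collagen hydroxylysine, had 34.1, 21.9 and 23.3 CPM in WT and 3.705, 3.18 and 6.55 CPM in RTF2-deficient line 2, with log2 fold changes of -2.56 in line 2 and -2.22 in line 1. Serhl, a serine hydrolase-like gene, had 13.6, 13.1 and 9.801 CPM in WT and 2.21, 1.74 and 3.097 CPM in RTF2-deficient line 2, with -2.36 and -2.22. All 3 RTF2-deficient libraries lay below the WT libraries in each of these genes. Cox6b2, the testis form of a cytochrome c oxidase subunit, had 15.4, 8.49 and 9.23 CPM against 0.553, 0.898 and 2.33 CPM, with -3.12 and -2.33. Among the others, named after their values were seen, Slc1a5, a glutamine transporter, fell by 2.01 in line 2 and by 1.83 in line 1, and Parp3, a poly(ADP-ribose) polymerase of DNA break repair, fell by 2.13 and by 1.49.

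Genes lower in both lines were shorter and richer in GC than all genes tested by their medians. Their median transcript GC content was 56.7% and their median gene span 9532 bases, beside 54.2% and 15865 bases for genes lower in line 2 and not in line 1. Genes called higher had 49.05% and 42346 bases, and all genes tested had 50.3% and 24605 bases. These medians are descriptions without a test, and at least 94.0% of each set had a value. GC content moved with the libraries as well. Each library's log2 CPM was taken as its deviation from the gene's mean over the 12 libraries, and smoothed against GC content. At 60% GC this trend lay between 0.03 and 0.06 in WT and between -0.13 and -0.05 in RTF2-deficient line 2 libraries. With a correction for this trend, chosen after seeing the data, 229 genes were lower and 240 higher, of which 220 and 212 were called without it.

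A few genes were called in opposite directions in the lines, namely Hoxd13 and, named after their values were seen, Coch and Hapln1. Hoxd13, a homeobox gene of the distal limb, had 138, 138 and 129.8 CPM in WT line 2 and 56.7, 52.3 and 73.3 CPM in RTF2-deficient line 2. In line 1 its mean was 0.728 CPM in WT and 5.44 CPM in RTF2-deficient MEFs, below each library of line 2. The log2 fold change was -1.15 in line 2 and 2.896 in line 1, and the difference of -4.05 had an adjusted p of 0.0019. The line 2 call of Hoxd13 was lost with the replicate block and without RTF2-deficient replicate 1 or 2, with an adjusted p of 0.080 without replicate 2. Coch, a secreted protein of the inner ear, had -2.17 and 1.06 in lines 2 and 1, and Hapln1, which links proteoglycans to hyaluronan, had -1.598 and 3.11. Of the 34 Hox genes tested, Hoxd13 was lower and Hoxb4 higher by 1.04, a call lost without WT replicate 1 or RTF2-deficient replicate 1, and the median of the list was 0.37. The adjusted p of Hoxb4 was at most 0.026 in the fits without 1 library, so its losses there came from the threshold on size. The shares of all genes called lower and higher were 2.0% and 1.70%.

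Small nucleolar RNA genes, which guide the modification of other RNAs from within introns of host genes, held 3 higher and 0 lower genes among 27 tested, beside 1.70% and 2.0% of all genes, with a median log2 fold change of -0.01. All 3 were of the H/ACA class, which guides pseudouridylation, and their GENCODE M21 transcripts are shown because they are the members that rose. Capitals mark the ACA box that the class is named for, 3 bases from the 3′ end. Snora41 lies at chr1:63179004-63179135 on the + strand, Snora5c at chr11:6620319-6620454 on the - strand and Snora68 at chr8:70895759-70895889 on the - strand of GRCm38.
Snora41: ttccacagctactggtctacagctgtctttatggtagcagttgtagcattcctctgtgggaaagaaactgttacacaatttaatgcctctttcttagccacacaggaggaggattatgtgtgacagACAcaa
Snora5c: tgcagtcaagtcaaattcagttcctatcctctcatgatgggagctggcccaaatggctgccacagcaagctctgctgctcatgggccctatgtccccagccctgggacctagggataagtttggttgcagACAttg
Snora68: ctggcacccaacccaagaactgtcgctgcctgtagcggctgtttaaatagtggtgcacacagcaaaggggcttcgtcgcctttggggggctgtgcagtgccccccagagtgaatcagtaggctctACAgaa

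Snora68 had 0.456, 0.485 and 0.472 CPM in WT and 4.35, 4.29 and 2.24 CPM in RTF2-deficient libraries (2.94, SE 0.41, adjusted p = 0.0012), and a log2 fold change of 2.45 in line 1. Snora41 had 0.261, 0.397 and 0.543 CPM in WT and 0.962, 1.28 and 0.814 CPM in RTF2-deficient libraries (1.35, SE 0.31, adjusted p = 0.016), and 1.56 in line 1. Snora5c had 0.109, 0.198 and 0.165 CPM in WT and 0.433, 0.795 and 0.407 CPM in RTF2-deficient libraries (1.77, SE 0.47, adjusted p = 0.031), and 1.82 in line 1, which was not called there (adjusted p = 0.081). All RTF2-deficient libraries lay above the WT libraries in these genes, with as few as 5 counts of Snora5c in a WT library. The Snora41 call was lost without RTF2-deficient replicate 2 (adjusted p = 0.077), and that of Snora5c was lost in 5 of the 6 such fits, with 0.14 without the same library. Each lies within a protein-coding gene, and since the counting is not stated to separate them, reads of host and small RNA cannot be told apart. The log2 fold change of Eef1b2, a translation factor gene and the host of Snora41, was 0.13 (adjusted p = 0.69). Tbrg4, a regulator of mitochondrial RNA whose gene holds Snora5c, rose from 40.02, 45.9 and 47.2 CPM to 103, 108 and 77.1 CPM (1.11, SE 0.17, adjusted p = 0.0021), and by 1.06 in line 1.

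Among 61 DNA replication factors the targeted gene Rtf2 was the single call, and the median log2 fold change was -0.11. An adjusted p below 0.05 at any size of effect was reached by 11 of the 61, beside 12.4% of all genes, and the groups did not overlap in 20, beside 29.3%. Prim1 had 58.2, 58.7 and 59.8 CPM in WT and 46.02, 49.5 and 57.5 CPM in RTF2-deficient libraries (-0.21, SE 0.10, adjusted p = 0.19). Pcna, the sliding clamp, had -0.11 (adjusted p = 0.38), Primpol, the primase-polymerase of damage bypass, 0.07 (adjusted p = 0.84), and Ddi2, a protease that acts with the proteasome, 0.14 (adjusted p = 0.38). Of 18 RNase H and RNA-DNA hybrid factors, Rtf2 and Rnaseh2c were lower, beside 2.0% of all genes. Rtf2 is the targeted gene itself, which leaves Rnaseh2c as the single other call. Rnaseh2c, a structural subunit of RNase H2, had 12.6, 21.3 and 14.1 CPM in WT and 7.39, 7.18 and 8.05 CPM in RTF2-deficient libraries (-1.08, SE 0.17, adjusted p = 0.0022), with no overlap, and a log2 fold change of -0.97 in line 1. The call was lost without WT replicate 2, its highest library, and with the GC correction. The catalytic Rnaseh2a had 0.06 (adjusted p = 0.71) and Rnaseh2b -0.07 (adjusted p = 0.71).

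Lists of housekeeping and stress genes held few or no calls. No gene was called by edgeR, or by DESeq2 in either fit, among 61 DNA damage checkpoint and repair genes (median log2 fold change -0.13), 37 p53 targets (-0.10), 34 replication-dependent histone genes (0.07), 28 cholesterol genes (-0.05), 35 glycolysis and hypoxia genes (-0.01), 26 NRF2 targets (-0.04), 23 chaperones of the endoplasmic reticulum (0.11) and 75 cytosolic ribosomal proteins (0.08). In that order 18, 7, 4, 3, 8, 3, 7 and 0 of them had an unadjusted p under 0.05, beside 27.6% of all genes tested. By edgeR 3.70% of all genes tested were called, a share at which lists of this size hold few calls. Topbp1, the most abundant of the repair genes and an activator of the ATR checkpoint kinase, had 247, 252 and 264 CPM in WT and 235, 235 and 238 CPM in RTF2-deficient libraries (-0.11, SE 0.07, adjusted p = 0.34). The most abundant genes of the other lists in the same order were Ccng1, a cyclin-like p53 target (-0.10), H2bc4, a histone H2B gene (-0.11), the lipid desaturase Scd2 (0.47), the glycolytic enzyme Gapdh (0.01), the ferritin Ftl1 (0.09), the chaperone Hsp90b1 (0.03) and the ribosomal protein Rpsa (0.13), none of which passed the test.

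Some lists held a single call, beside 3.70% of all genes called, and a single call in lists of this size says nothing particular about them. Among 48 genes of G2 and mitosis Cdca3, a trigger of mitotic entry, was lower, with 59.8, 106 and 91.8 CPM in WT and 45.8, 38.5 and 38.3 CPM in RTF2-deficient libraries (-1.07, SE 0.18, adjusted p = 0.0034), and that call was lost without WT replicate 2. The adjusted p of Cdca3 was at most 0.022 in the fits without 1 library, so the loss came from the threshold on size. Cdkn1c, the CDK inhibitor p57, was higher by 1.405 among 28 cyclin, CDK inhibitor, E2F and Rb family genes, a call lost in 4 of the 6 fits without 1 library. Dusp4, a MAP kinase phosphatase, was higher among 34 immediate early genes, with 3.71, 3.42 and 5.08 CPM in WT and 19.5, 20.8 and 16.1 CPM in RTF2-deficient libraries (2.21, SE 0.16, adjusted p = 3.6e-05). The groups were apart in each of these genes. The lower ones were Cox6b2 among 77 oxidative phosphorylation subunits, Psma8, a testis proteasome subunit, among 38 (-1.93), Pycr1, of proline synthesis, among 36 ATF4 target genes (-1.11), the small heat shock protein Hspb6 among 22 (-1.04) and the clock-output factor Hlf among 19 clock genes (-1.83). Pycr1 and Hspb6 lost their calls in 4 and 3 of the fits.

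Interferon-induced genes had large median shifts, and none was called by edgeR. All 56 antiviral genes had a log2 fold change below 0, with a median of -1.55 and 5 genes at an unadjusted p under 0.05. The 14 guanylate-binding proteins and immunity-related GTPases had a median of -1.77 with 1 such gene, and the 23 genes of MHC class I and peptide loading had -1.14 with 11, beside 27.6% of all genes tested. DESeq2 on the 12 libraries called 1, 0 and 2 genes of these lists lower. In line 1 the medians of these lists, in the same order, were -1.03, -0.89 and -0.19, and edgeR called none of their genes. In line 2 no gene of the lists separated the groups, beside 29.3% of all genes tested. Bst2, the tetherin that holds virus particles on the cell surface, had 779.5, 120.5 and 302 CPM in WT and 24.8, 55.7 and 416 CPM in RTF2-deficient libraries (-1.27, SE 1.05, adjusted p = 0.47). Ifit3, an interferon-induced antiviral protein named after its values were seen, had 1024, 36.2 and 143 CPM in WT and 6.69, 11.5 and 266 CPM in RTF2-deficient libraries. In both genes WT replicate 1 and RTF2-deficient replicate 3 were the highest libraries of their groups. Irgm1 and Pdia3, the most abundant genes of the GTPase and peptide loading lists, had -0.07 and -0.01.

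The antiviral values rested on single libraries. Without RTF2-deficient replicate 3, 42 of the 56 antiviral genes were called lower and the median was -3.92, and without WT replicate 1 none was called and the median was -0.29. Without both, chosen after seeing the data, 16 of 55 were called lower and the median was -2.60. The GTPase list had 8 lower genes without RTF2-deficient replicate 3, 0 without WT replicate 1 and 3 of 13 without both. The MHC class I list had 12, 0 and 6, with 1 higher gene in the last. Over all genes tested in the same fits, 577 of 13955, 208 of 13908 and 365 of 13830 were lower, with 224 higher in the last.

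**Figure D5:**
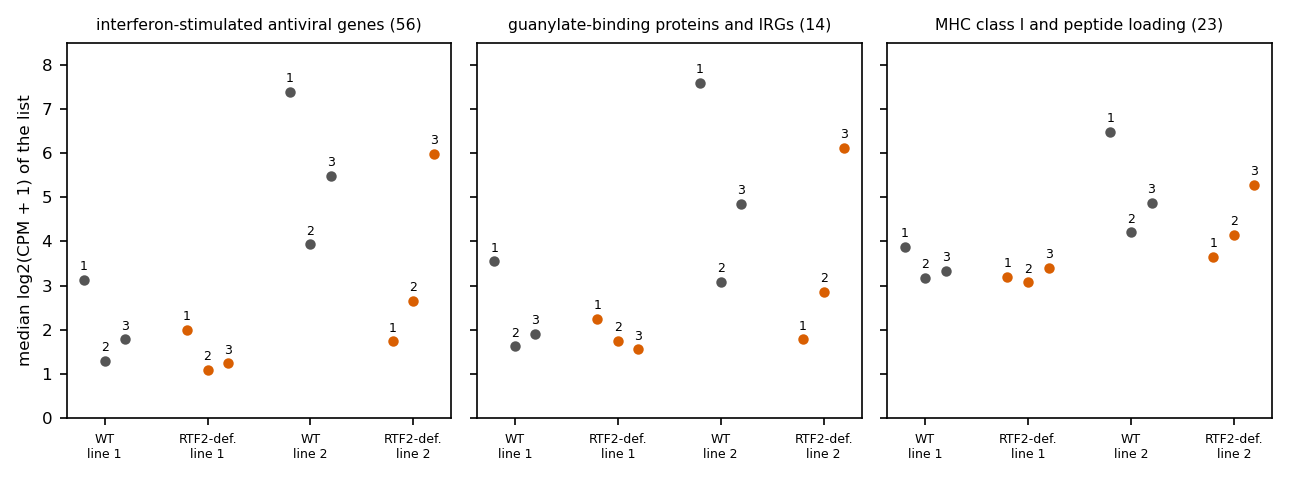
Median log2(CPM + 1) of 3 interferon-induced gene lists (y axis) in each library, numbered by replicate, by group (x axis). For the antiviral list WT replicate 1 (7.38) and RTF2-deficient replicate 3 (5.99) are the highest libraries of line 2, and the groups overlap.

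Tyk2, a kinase of the type I interferon receptor, was the only call among 22 receptors, STATs and IRFs. Tyk2 had 29.9, 23.97 and 25.2 CPM in WT and 7.43, 8.47 and 12.1 CPM in RTF2-deficient libraries (-1.49, SE 0.16, adjusted p = 0.00034), with no overlap, and -1.19 in line 1. Among 29 chemokines and cytokines 3 were lower, beside 2.0% of all genes, with a median log2 fold change of -0.93 that became -0.19 without WT replicate 1, the library of highest interferon level. Their median log2(CPM + 1) was 3.22, 1.83 and 2.21 in WT and 1.82, 2.07 and 2.23 in RTF2-deficient libraries, so the groups overlapped. Il1rl1, the IL-33 receptor, had 531, 622 and 748 CPM in WT and 179.8, 200.2 and 153 CPM in RTF2-deficient libraries (-1.84, SE 0.20, adjusted p = 0.00037). In line 1 its means were 52.7 and 65.3 CPM, below each library of line 2. The neutrophil chemokines Cxcl1 and Cxcl3 had -1.78 and -1.55, and their calls were lost in 3 and 5 of the fits without 1 library. Of 14 complement genes 1 was lower and 1 higher, beside 2.0% and 1.70% of all genes, and C1rl, a C1r-like protease, was at -1.696, a call lost in 4 of those fits. The complement list had a median log2 fold change of -1.18, with 12 of the 14 genes below 0, beside 6960 of 13773 genes tested. Its median log2(CPM + 1) was 3.42, 2.31 and 2.42 in WT and 1.41, 1.53 and 1.95 in RTF2-deficient libraries.

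Of 37 collagen genes 4 were higher and 1 lower, beside 1.70% and 2.0% of all genes tested, with a median log2 fold change of 0.03. Col8a1, a short-chain collagen of vessel and corneal membranes, had 286, 429 and 415 CPM in WT and 894, 879.8 and 900.5 CPM in RTF2-deficient libraries (1.24, SE 0.13, adjusted p = 0.00029). Col7a1, of anchoring fibrils, had 27.1, 23.2 and 30.4 CPM against 67.05, 77.9 and 50.2 CPM (1.27, SE 0.18, adjusted p = 0.0014), and Col4a4, of basement membrane, rose by 2.13. These calls were kept whichever library was left out, and in line 1 the mean of Col8a1 was 1201 CPM in WT and 1391 CPM in RTF2-deficient MEFs. The others, named after their values were seen, were Col4a1 at 1.08 and Col18a1 at -1.14.

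Of 76 matrix glycoproteins and proteoglycans 6 were lower and 3 higher, beside 2.0% and 1.70% of all genes, with a median of -0.26. Igfbp5, a binding protein of insulin-like growth factors, had 16.9, 15.1 and 17.7 CPM in WT and 58.7, 67.8 and 125 CPM in RTF2-deficient libraries (2.34, SE 0.40, adjusted p = 0.0038). Omd, a proteoglycan of bone, was lower at -2.03 and Lama1, a laminin chain of early basement membrane, higher at 1.75, with calls lost in 2 and 4 of the fits without 1 library. Mmp23 was the only call among 39 matrix proteases and inhibitors (-1.07), and Actg2, a smooth muscle actin, the only one among 19 smooth muscle genes (1.38). Mmp23 lost its call with the GC correction and without RTF2-deficient replicate 1 or 2, and Actg2 without RTF2-deficient replicate 2.

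Signalling genes of the embryo held calls in both directions. Gdf5, Gdf6 and Chrd, all of BMP signalling, were the 3 lower genes among 52 TGF-beta and BMP genes, beside 2.0% of all genes. Gdf5, a ligand of joint formation, had 2.801, 2.23 and 1.700 CPM in WT and 0.385, 0.359 and 0.565 CPM in RTF2-deficient libraries (-2.35, SE 0.47, adjusted p = 0.0084), and Chrd, the BMP antagonist chordin, had -1.31. Gdf6 had -1.88 and lost its call in 5 of the 6 fits without 1 library. Among 48 Wnt genes 2 were lower and 2 higher, beside 2.0% and 1.70% of all genes. Wnt10a, a Wnt ligand of skin and teeth, had 5.49, 5.98 and 7.39 CPM in WT and 1.01, 1.33 and 1.76 CPM in RTF2-deficient libraries (-2.19, SE 0.29, adjusted p = 0.00096). Sfrp4, a secreted Wnt antagonist, went from 0.912, 0.595 and 0.732 CPM to 3.13, 3.41 and 5.47 CPM (2.42, SE 0.26, adjusted p = 0.00030). The groups were apart in both, and the effect of each differed from that in line 1 (adjusted p = 0.013 and 0.0089). Lgr5, the R-spondin receptor, had -2.04, and Lef1, a Wnt transcription factor named after its values were seen, had 1.43, both lost in 5 of the fits. Mdk, a heparin-binding growth factor, was the only call among 48 growth factors and receptors, at 1.14, and it was lost without WT replicate 1. Its adjusted p was at most 0.012 in the fits without 1 library, so that loss came from the threshold on size.

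The list of 61 semaphorins, plexins and ephrins, which steer growing axons and vessels, held 3 lower and 5 higher genes, beside 2.0% and 1.70% of all genes. Sema3d had 68.5, 71.2 and 67.3 CPM in WT and 19.99, 17.4 and 31.2 CPM in RTF2-deficient libraries (-1.59, SE 0.34, adjusted p = 0.012), and Sema7a, a membrane-anchored semaphorin, had 2.03. Their calls were lost in 2 and 5 of the 6 fits without 1 library, with adjusted p values of 0.061 and 0.18 without RTF2-deficient replicate 2. The others besides Plxna2, named after their values were seen, were Sema3c at -1.08, Sema6b at -1.26, Epha4 at 1.01, Epha5 at 1.11 and Plxna4 at 1.21. Of 37 integrins and cadherins 3 were lower and 2 higher, beside the same shares. Itgb7, a leukocyte integrin chain, had 1.59, 2.09 and 2.74 CPM in WT and 0.529, 0.385 and 0.701 CPM in RTF2-deficient libraries (-1.98, SE 0.30, adjusted p = 0.0018), and Cdh26 had -1.56, a call lost in 3 of the fits without 1 library and by DESeq2 on line 2 alone. Beside Cdh10 the others, named after their values were seen, were Cdh11 at 1.31 and Cdh13 at -1.08.

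Transcription factors that mark position and lineage were called in both directions. Of 70 factors of limb and craniofacial mesenchyme 2 were lower and 6 higher, beside 2.0% and 1.70% of all genes, with a median of 0.03. Foxp2, a forkhead factor, had 6.82, 10.3 and 11.3 CPM in WT and 29.4, 30.2 and 30.2 CPM in RTF2-deficient libraries (1.66, SE 0.14, adjusted p = 0.00011). Alx4, a limb and skull patterning factor, had 0.521, 0.750 and 1.04 CPM against 3.32, 2.67 and 2.22 CPM (1.83, SE 0.43, adjusted p = 0.017), a call lost in 4 of the fits without 1 library. Beside Osr2 the lower gene was the forelimb factor Tbx5 at -1.504, named after its values were seen. Sox6, of cartilage, was lower at -1.54 and Tnnt2, cardiac troponin T, higher at 2.12 among 26 lineage genes, beside the same shares, and the Sox6 call was lost in 5 fits. Of 17 retinoic acid genes 2 were higher, beside 1.70% of all genes. Among them the retinal dehydrogenase Aldh1a3 had 5.58, 3.86 and 5.74 CPM in WT and 8.78, 16.7 and 22.3 CPM in RTF2-deficient libraries (1.65, SE 0.31, adjusted p = 0.0065).

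Among 34 epithelial junction and keratin genes 5 were higher and 0 lower, beside 1.70% and 2.0% of all genes, with a median of 0.14. An adjusted p under 0.05 at any size of effect was found in 6 of them, beside 12.4% of all genes. Beside Krt7, Lad1, an anchoring filament protein of basement membrane, had 1.37, 0.728 and 0.874 CPM in WT and 5.92, 6.98 and 5.696 CPM in RTF2-deficient libraries (2.64, SE 0.26, adjusted p = 0.00022), and 1.06 in line 1. Cldn4, a tight junction claudin, had at most 2 counts in a WT library and 0.866, 0.488 and 0.249 CPM in RTF2-deficient libraries, so no fold is given, and its call was lost by DESeq2 on 12 libraries. The others, named after their values were seen, were Pkp1 at 1.12 and Krt87 at 1.69. Of 58 ion channel genes 5 were lower and 6 higher, beside 2.0% and 1.70% of all genes, among them the potassium channel Kcnd2, which had 0 to 4 counts in WT libraries and 0.361, 0.488 and 0.339 CPM in RTF2-deficient libraries. Of 44 protocadherins, beside the same shares, Pcdh1 and Pcdh9 were higher, at 1.69 and 1.004, with calls lost in 5 and 3 fits. Of 40 glutathione transferases and cytochrome P450s Cyp46a1, of cholesterol turnover in brain, was lower at -1.32, a call lost in 5 of the fits without 1 library and in both DESeq2 fits. Of 3 proliferin genes Prl2c3 was called, with at most 3 counts in a WT library, and that call was lost in 4 of the fits without 1 library, with the replicate block and by DESeq2 on 12 libraries.

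Imprinted genes, expressed from the allele of 1 parent, held 2 lower and 5 higher genes among 36, beside 2.0% and 1.70% of all genes, with a median log2 fold change of 0.23. Dio3, the enzyme that inactivates thyroid hormone, and Dio3os, the non-coding RNA gene beside it on chromosome 12, were the lower pair. Dio3 had 3.93, 11.1 and 5.46 CPM in WT and 0.842, 0.975 and 1.198 CPM in RTF2-deficient libraries (-2.76, SE 0.46, adjusted p = 0.0035). Dio3os had 0.456, 1.08 and 0.827 CPM against 0, 0.0513 and 0.113 CPM (-3.75, SE 0.70, adjusted p = 0.0056). The groups were apart in both, and the pair does not overlap in the GENCODE M21 annotation. In line 1 the log2 fold changes of -1.73 and -1.93 did not pass the test (adjusted p = 0.071 and 0.14). Usp29, of the Peg3 cluster on chromosome 7, had 2 to 7 counts per WT library and 0.698, 0.616 and 0.565 CPM in RTF2-deficient libraries. Peg3 and Zim1 of that cluster, named after their values were seen, were higher at 1.65 and 2.09. Peg3 had 11.7, 11.2 and 10.9 CPM in WT and 39.6, 34.2 and 32.2 CPM in RTF2-deficient libraries, and its call was lost in 5 of the fits without 1 library although the groups were apart. The others were Cdkn1c and, named in the same way, Mest at 1.05.

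By position, median log2 fold changes of the 19 autosomes lay between -0.06 (chromosome 17) and 0.08 (chromosome 18), and the share of genes called ran from 2.50% (chromosome 11) to 5.71% (chromosome 15). Of 522 overlapping windows of 50 neighbouring genes, 14 had a median beyond 0.2 in size, all of them negative. Among these 1 was beyond 0.3, which lay on chromosome 7 at -0.33. The highest window median was 0.199. Within 10 Mb of Rtf2, on the chromosome that carries the targeted alleles, 177 genes were tested, 11 were lower, Rtf2 included, and 2 were higher. Without Rtf2 that is 6.82% called, beside 3.70% over all genes, and the median log2 fold change of the region was 0.01. Of the 11 lower genes 5 were lower in line 1 too, namely Rtf2 and, named after their values were seen, Npepl1, Ripor3, Tcfl5 and Pcmtd2. Npepl1, an aminopeptidase-like gene, had 45.8, 54.7 and 53.3 CPM in WT and 16.6, 16.4 and 18.9 CPM in RTF2-deficient libraries and fell by 1.57 in line 2 and by 1.33 in line 1. Slco4a1, an organic anion transporter named in the same way, had -1.66 in line 2 and 1.199 in line 1 (adjusted p = 0.014 for the difference). The part of the targeted alleles' flanking sequence in these genes was not tested.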

How the data were processed

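RNA from the MEFs was sequenced as single 75-base reads, and the authors deposited a table of raw counts per gene for 12 libraries, with Entrez Gene identifiers. Which program counted the reads is not settled here: the study's methods name Salmon on the mm10 knownGene transcripts, whereas HTSeq stands in the submitters' processing notes. Neither strand use nor poly(A) selection is stated in the sources read. The counts were used as deposited, normalized by TMM and filtered by filterByExpr, and all 12 libraries in 4 groups entered edgeR 4.0.16 (R 4.3.3, limma 3.58.1). The contrasts were RTF2-deficient minus WT in each line and the difference between lines, with Benjamini-Hochberg adjustment over all genes tested. The 490 genes on X and Y were left out afterwards. Library totals in line 2 were 39360167 to 44695002 counts. Symbols, positions and sequences came from RefSeq and GENCODE M21. DESeq2 1.42.0, other normalizations, filters and designs, the replicate block and leaving out each library were alternatives, and the GC correction and leaving out both libraries of high interferon level were added after seeing the data. The scripts were tested on simulated data.

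Members and the 44 gene lists were chosen with earlier results of these data known. Genes are named by a rule: Rtf2, the 12 most negative and 12 most positive called genes with at least 1 CPM in the higher group, up to 3 called genes per list or else its most abundant gene, the 5 largest shared by both lines, and the genes of the proteins the study examined. Lists are described by counts and medians beside all genes tested. Some genes that this rule names are not reported here, and counts of named genes include them.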

Additional observations from a re-analysis of the deposited data

Results flagged for a closer look

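The difference between RTF2-deficient and WT libraries was not the same in the 2 lines, by the interaction term of edgeR's quasi-likelihood test, in 142 genes. Genotype, sex and embryo cannot be told apart within line 2, and so neither can they in these values. Among the genes reported by the naming rule the difference, line 2 log2 fold change minus that of line 1, was negative for Lrrtm3 (-4.27), Hoxd13 (-4.05), Reln (-3.32), Wnt10a (-2.85), Sox6 (-2.82), Cacna1h (-2.24) and Il1rl1 (-2.15). It was positive for Sprr2g (4.49), Krt7 (4.46), 3110039M20Rik (3.62), Pou3f3 (2.89), Car3 (2.83), Megf10 (2.78), Dusp4 (2.61), Sfrp4 (2.51), Cdh10 (2.32), Plxna2 (1.42), Foxp2 (1.34), Col7a1 (1.21) and Col8a1 (1.03). Among the genes named after their values were seen it was -4.71 for Hapln1, -3.23 for Coch, -2.85 for Slco4a1, -1.33 for Col18a1, -1.199 for Sema3c, -1.07 for Cdh13 and 1.27 for Cdh11. Hoxd13 moved in opposite directions in the lines. WT libraries of line 2 held 2 to 4 counts of Sprr2g, so the size of its value depends on few counts.

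Outside the genes described, 30 of the 490 genes tested on chromosomes X and Y were called in line 2, 17 lower and 13 higher. The share called among the genes described was 3.70%. Genotype, sex and embryo cannot be told apart in these 30 calls, and the part of each was not tested. Groups of 3 libraries are too small for a test of single outlying libraries, and none was made.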

How the results depend on the processing

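Rtf2 kept its call and direction in each alternative run, and no called gene changed sign in an alternative that tested it. The filter of 1 CPM left 89 of the called genes untested, the fit of line 2 alone 9 and the GC correction 21. Against a log2 fold change of 1 (glmTreat) 16 genes were lower and 26 higher, and by DESeq2 on 12 libraries the effect differed between lines in 253 genes. Leaving out 1 library at a time gave 141 to 577 lower genes, 158 to 266 higher genes and 55 to 131 genes with an effect that differed between lines. Without RTF2-deficient line 2 replicate 1, 2 or 3 the lower genes were 160, 141 or 577. Genes that differed between lines numbered 81 and 55 without RTF2-deficient replicates 1 and 2 of line 2, 64 without the third WT library of that line, 86 and 66 without RTF2-deficient replicates 1 and 2 of line 1, and 66 without WT replicate 2 of line 1. The cause was not tested. DESeq2 on 12 libraries called 318 lower and 283 higher genes and on line 2 alone 315 and 268. With WT replicate 1 and RTF2-deficient replicate 3 of line 2 left out together, chosen after seeing the data, 365 genes were lower and 224 higher. With the replicate block 273 genes were lower, 247 higher and 104 differed between lines, with Rtf2 still called. The deviations of same-numbered libraries of line 2 had correlations of -0.59, 0.18 and -0.28, so the numbers do not pair the libraries.

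Of 80 called named genes, 62 lost the call under glmTreat and 24 or fewer in any other alternative. Calls were lost with the GC correction in Hspb6, Mmp23, Osr2, Pcdh9 and Rnaseh2c, with the replicate block in Cdh26, Cyp46a1, Hoxd13 and Prl2c3, by DESeq2 on 12 libraries in Cldn4, Cyp46a1, Prl2c3 and Rab26 and on line 2 alone in Cdh26 and Cyp46a1, and without the filter in Cyp46a1. The edgeR fit of line 2 alone lost 11, namely Actg2, Cdh26, Cdkn1c, Cxcl1, Cyp46a1, Kcnd2, Mmp23, Pcdh9, Pycr1, Snora41 and Snora5c. Leaving out both libraries of high interferon level lost 12, namely Alx4, Cdh26, Chodl, Cxcl3, Cyp46a1, Heyl, Lama1, Lgr5, Osr2, Sema7a, Snora5c and Sox6. Of 17 uncalled ones, 11 changed sign in some setting, and all stayed uncalled. Irgm1 had 0.15 with the replicate block and 0.27 with both libraries left out, and Pdia3 0.000896 without the filter and 0.012 with both left out. Hsp90b1 had -0.023 with the GC correction. With 1 library left out at a time, the log2 fold change crossed 0 in these genes, with ranges of -0.16 to 0.0035 for H2bc4, -0.16 to 0.0041 for Ccng1, -0.13 to 0.051 for Rnaseh2b, -0.56 to 0.77 for Irgm1, -0.064 to 0.036 for Pdia3, -0.14 to 0.22 for Gapdh, -0.0075 to 0.083 for Hsp90b1, -0.027 to 0.14 for Rnaseh2a, -0.012 to 0.24 for Primpol, -0.055 to 0.28 for Ftl1 and -0.0032 to 0.30 for Rpsa. Besides the losses given with each gene, calls were lost without some line 2 library for Cd68, Cdh13, Col18a1, Epha4, Epha5, Gm16596, Krt87, Mest, Pcmtd2, Pkp1, Plxna4, Sema3c, Tbx5 and Tcfl5. Genes at low counts limit the precision, since called genes had medians of 4.22 and 2.51 CPM.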
